A study of Drosophila melanogaster with 4 samples.

Results

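The Sox genes of Drosophila melanogaster are 8 protein-coding genes for transcription factors with an HMG box, and the peaks at them were read from chromatin immunoprecipitation and sequencing (ChIP-seq) of Chinmo, a BTB zinc finger transcription factor. The members were chosen by symbol in the Ensembl annotation, and are Sox14, SoxN, D, Sox15, Sox21a, Sox21b, Sox100B and Sox102F, 8 of 13945 protein-coding genes on the 6 chromosome arms used. A peak was assigned to a gene when its summit lay in the gene body or within 5000 bp of it, so that a peak at a neighbour's promoter can fall in the window too. The flies carried Chinmo as a fusion with eGFP, and the chromatin came from whole embryos aged 6 to 24 h by the source label; the separate age label holds an impossible number of hours and was not used. All 4 libraries, biological replicates 1 to 4, belong to this 1 group, with no second condition. Per the sample descriptions GFP was the target of the immunoprecipitation, while a separate label lists the antibody as one to Chinmo. Whole embryos hold many cell types, and peak lists cannot say in which of them a region was bound; the copy number of the tagged gene is not given in the sources used here.

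For each library the authors deposited a thresholded list, of 3435, 4415, 2225 and 3038 peaks in replicates 1 to 4, and a longer ranked list, of 39725, 27034, 30166 and 34150 peaks. Both are named for an irreproducible discovery rate (IDR) analysis, and the thresholded lists held scores of 830 and above. A peak's strength is given as its rank by signal value within its list (1 is the strongest) or as its rank percentile, the percentage of peaks of that list with a signal value no higher. Thresholded summits were joined into 1 position when windows of 100 bp to either side of them met, and a position that 3 or 4 libraries contributed to is called a shared region. The signal values and scores are the authors' own. Without read counts in the lists the depth is unknown, and a gene without a peak is not a gene shown to be unbound. As a check of the label, the strongest shared region within 20000 bp of chinmo ranked 1, 1, 3 and 1. Without a control library or the copy number of the tagged gene, these ranks cannot show which protein was precipitated.

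Sox proteins bind the minor groove of DNA through the HMG box and bend it, usually together with a partner factor, and the family acts in early patterning, in neural stem cells and in organ stem cells. In the fly, SoxN and D (Dichaete) are the group B factors that support the formation of the central nervous system, with Sox21a and Sox21b in the same group. Sox14 is the group C member, Sox102F the group D member, Sox100B the group E member and Sox15 the group F member. Chinmo is known for the timing of neuronal identity and for stem cell maintenance in the testis, and has been described mainly as a repressor.

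The sequence under the SoxN region, which was thresholded in all 4 libraries, is shown first. It is followed by the Sox21b position, which was thresholded in 1 library but listed in all 4 ranked lists. The Sox102F position comes last, which was thresholded in 1 library and absent within 100 bp from the other ranked lists. When ranked summits were joined by the rule used for thresholded ones, a wider Sox102F position was in all 4 ranked lists, at ranks 7392, 3252, 29439 and 11547. Each printed sequence lies upstream of the gene's annotated transcription start site (TSS) and is written 5′ to 3′ on the gene's strand from the RefSeq genome of Release 6. Coordinates are those of dm6, the name of the same assembly. Capitals mark matches to any of 6 motifs on either strand: ACAATG and ACAAAG (Sox cores), GAGAG (GAGA factor), CAGGTA (Zelda), CACACA (a CA repeat) and TTCNNNGAA (STAT). Overlapping matches of a motif were each counted.
SoxN, plus strand, chr2L:8825274-8825573: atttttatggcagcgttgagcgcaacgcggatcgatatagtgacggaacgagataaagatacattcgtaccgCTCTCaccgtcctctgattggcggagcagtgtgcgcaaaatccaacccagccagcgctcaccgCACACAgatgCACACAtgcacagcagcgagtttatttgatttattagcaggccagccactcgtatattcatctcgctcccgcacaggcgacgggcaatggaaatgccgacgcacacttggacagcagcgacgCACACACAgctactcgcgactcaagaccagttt
Sox21b, minus strand, chr3L:14131723-14132022: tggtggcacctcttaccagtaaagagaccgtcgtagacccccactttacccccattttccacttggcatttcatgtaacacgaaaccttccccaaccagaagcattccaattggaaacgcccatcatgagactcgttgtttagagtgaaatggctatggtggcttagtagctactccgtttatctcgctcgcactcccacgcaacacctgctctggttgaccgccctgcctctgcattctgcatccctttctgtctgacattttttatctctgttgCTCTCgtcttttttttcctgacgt
Sox102F, minus strand, chr4:834394-834678: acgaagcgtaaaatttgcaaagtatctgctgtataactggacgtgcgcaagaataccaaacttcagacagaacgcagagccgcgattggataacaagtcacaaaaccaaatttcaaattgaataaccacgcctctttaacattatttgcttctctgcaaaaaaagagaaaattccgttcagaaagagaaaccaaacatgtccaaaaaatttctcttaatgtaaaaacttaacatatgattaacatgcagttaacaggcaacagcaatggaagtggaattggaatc

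The SoxN window held 4 matches to CACACA and 1 to GAGAG. The Sox21b window held 1 match to GAGAG, and the Sox102F window matched none of the 6 motifs. Among the 2150 shared regions of the genome, 42.2% held CACACA and 54.8% held GAGAG within 300 bp around the centre. None of these 3 windows held a Sox core. Of the other 9 positions described below, the one at D held 1 match to each Sox core, 6 to GAGAG, 1 to CAGGTA and 1 to CACACA, and the one upstream of Sox100B held 1 match to ACAAAG. The intronic Sox15 position also held 1 match to CAGGTA, with 1 to GAGAG and 2 to CACACA, and the Sox15 promoter position held 4 to GAGAG. The main Sox14 region held 1 match to CACACA, the other shared region of Sox14 held 3 to CACACA and 2 to GAGAG, and the position at the Phm promoter held 2 to GAGAG. The positions at the PPP1R15 and RpS23 promoters matched none. Sox cores were found in 13.6% (ACAATG) and 19.7% (ACAAAG) of all shared regions, CAGGTA in 6.00% and TTCNNNGAA in 5.77%. The STAT motif matched at none of the 12 positions. A match describes the letters only. The GC content of the 300 bp around the centre was 53.3% at SoxN, 48.7% at Sox21b and 36.7% at Sox102F, where all shared regions had a mean of 46.0% ± 6.64 (SD over regions).

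Shared regions were found at 2 of the 8 Sox genes, Sox14 and SoxN, and at 28.5% of all protein-coding genes by the same rule. There were 3 such regions, 2 at Sox14 and 1 at SoxN, and all 3 lay within 1000 bp upstream of a TSS of the gene itself. The same 2 genes are the ones with a shared region within 1000 bp of a TSS, a criterion that 12.7% of all genes met. Both also had a region found in all 4 libraries, as did 17.7% of all genes, and Sox14 was the 1 member with 2 or more shared regions, as were 7.86% of all genes. The windows of the 8 genes added up to 180.1 kb and held 1.67 shared regions per 100 kb, where the 6 arms held 1.61. The arms include sequence outside gene windows, and the overlap of the Sox21a and Sox21b windows was counted for both, so the 2 densities are not of like sequence. Members ranged from 12.2 regions per 100 kb at Sox14 and 7.13 at SoxN to 0 at the other 6. The windows were long, with a median of 18.7 kb against 12.2 kb for all protein-coding genes, which gives a member more room for a peak.

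Sox14, a group C factor that responds to the steroid hormone ecdysone and is needed for the pruning of dendrites, had one of the strongest promoter peaks of the genome. The gene (FBgn0005612; arm 2R, 23978801 to 23985177, plus strand) has 3 annotated TSS, at 23978801, 23979099 and 23979895. Its main region (2R, 23978281 to 23978886) was centred at 23978522, which is 279 bp upstream of the first TSS. The rank percentiles in the thresholded lists were 99.4, 99.0, 100 and 99.8 in replicates 1 to 4, a mean of 99.6 ± 0.413 (SD, n = 4). By mean rank percentile it took place 8 among the 2150 shared regions, and 6 of the 3978 genes with a shared region in their window, Sox14 included, had one as strong or stronger. Among these 6 were its neighbours PPP1R15 and mr, whose windows hold the same region.

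The strongest summit upstream of Sox14 lay at nearly the same base in all 4 libraries, with summits at 23978516, 23978504, 23978517 and 23978527. These 4 peaks were 191, 182, 475 and 404 bp wide, while the median widths of the lists were 400, 430, 396 and 420 bp. In replicates 1 and 2 only 3.20% and 3.81% of the thresholded peaks were as narrow or narrower, and in replicate 4 7.80%, while in replicate 3 the share was 99.4%. Widths varied little within a list, as 99.7%, 99.6%, 99.3% and 99.6% of the peaks in replicates 1 to 4 were no wider than the median. The shares therefore do not place a peak on a broad spread of widths, and the 404 bp of replicate 4 were close to its median of 420 bp. Replicates 3 and 4 had a further thresholded summit closer to the TSS, at 23978720 and 23978728, 81 and 73 bp upstream of it, with ranks 727 and 595. These weaker summits were joined to the main region because their windows met.

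The second shared region of Sox14 lay 170 bp upstream of the third TSS of the gene (2R, 23979453 to 23980051), in the annotated 5′ UTR of the longer transcripts. It was thresholded in replicates 1, 2 and 3, with 2 summits in replicate 1, and its strongest summits had rank percentiles of 41.7, 70.4 and 33.5, a mean of 48.5 ± 19.3 (SD, n = 3), against a median of 62.2 for all shared regions. Replicate 4 lacked it in the thresholded list but listed it in the ranked list at rank 2148 with a score of 314. In the ranked lists its rank percentiles were 94.4, 94.7, 94.5 and 93.7. The main region was 51.0 ± 19.8 (SD, n = 3) percentile points above it, higher in 3 of 3 libraries, which an exact two-sided sign-flip permutation test cannot call (p = 0.25, the smallest possible with 3 pairs; adjusted p = 0.375 over 3 pairs of regions).

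Another 2 positions in the Sox14 window lay at promoters of other genes. One was 47 bp upstream of a TSS of PPP1R15, which encodes a regulator of the phosphatase that acts on the translation factor eIF2α, and 1499 bp upstream of Sox14. It was thresholded in replicates 2 and 4, at ranks 2643 and 1828, and ranked in replicates 1 and 3 with scores of 624 and 108. The other was 50 bp upstream of a TSS of Phm, which encodes an enzyme of neuropeptide amidation, and lay beyond the 3′ end of Sox14. It was thresholded in the same 2 libraries, at ranks 2016 and 902. In the gene body, past the third TSS, the ranked lists held a position 1229 bp downstream of it in all 4 libraries, in an intron, with rank percentiles from 27.3 to 74.3, and another 2810 bp downstream, with rank percentiles from 10.5 to 86.5. None of these peaks was thresholded.

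**Figure D1:**
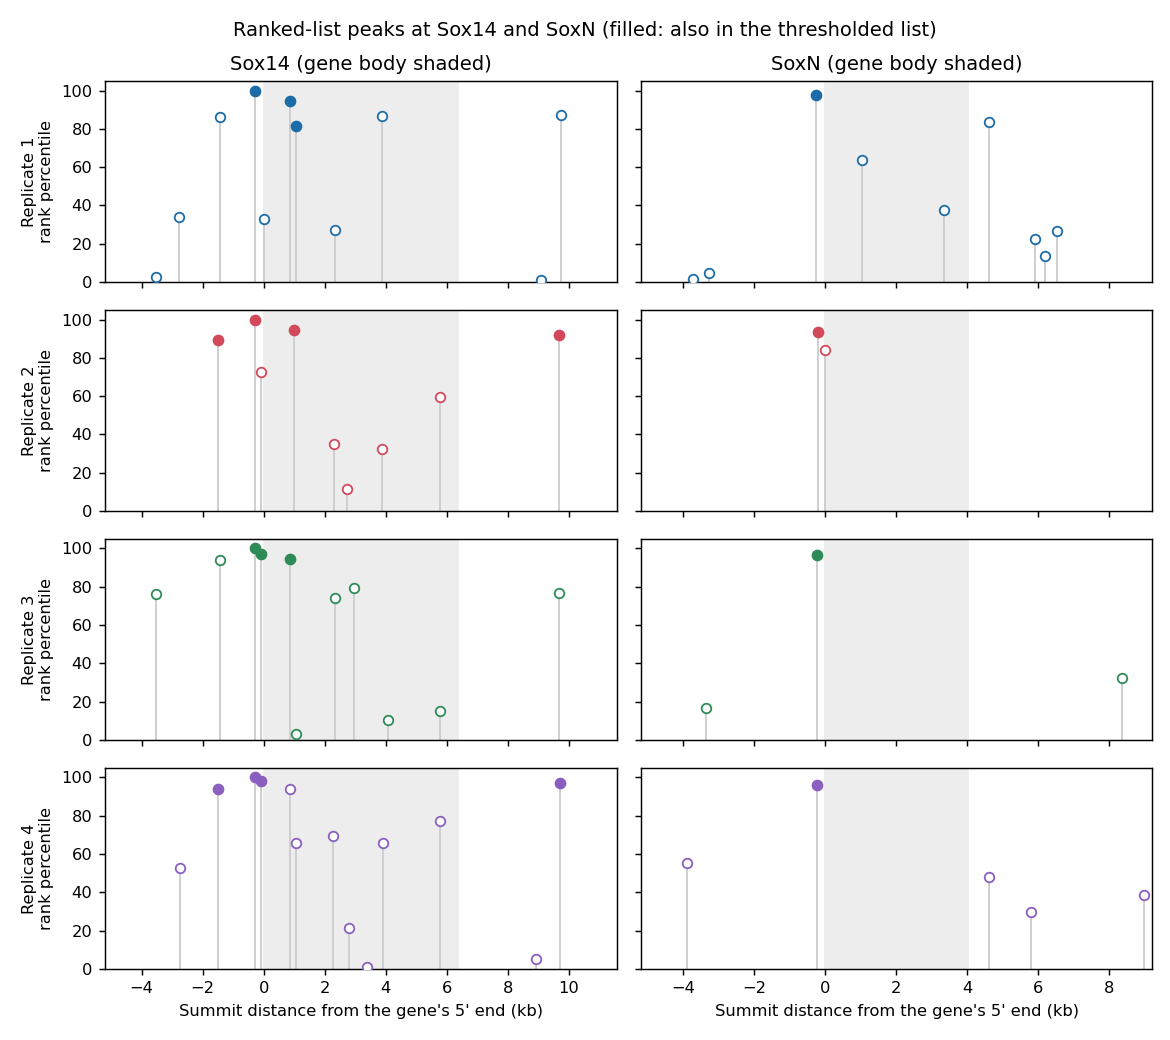
Rank percentile in the ranked list (y axis) of every peak in the Sox14 and SoxN windows, by distance of its summit from the 5′ end of the gene in kb (x axis), 1 row per replicate; filled points are also in the thresholded list and the gene body is shaded. The tallest point in each panel is filled and lies just upstream of the gene, at 99.8 or above for Sox14 and between 93.7 and 97.7 for SoxN.

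SoxN, a group B factor needed for the formation of neural progenitors, had 1 shared region, at its promoter. The gene (FBgn0029123; arm 2L, 8825645 to 8829670, plus strand) has 1 annotated TSS, and no other protein-coding gene overlaps its window. The region (2L, 8825179 to 8825651) was centred 221 bp upstream of the TSS, with summits at 8825379, 8825437, 8825419 and 8825429 in replicates 1 to 4, a span of 58 bp. The peaks ranked 842, 1569, 894 and 1190 in the thresholded lists, with rank percentiles of 75.5, 64.5, 59.9 and 60.9 and a mean of 65.2 ± 7.17 (SD, n = 4). That was close to the middle of the genome's regions, as 44.5% of the 2150 shared regions had a mean at least as high. The Sox14 region was above it by 34.4 ± 7.37 percentile points (SD, n = 4) and in 4 of 4 libraries; with 4 pairs the exact two-sided sign-flip permutation test gave p = 0.13, the smallest it can give, and an adjusted p of 0.375.

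The ranked lists held further peaks in the SoxN window, none thresholded, the highest at rank percentiles of 84.1 in replicate 2 and 83.5 in replicate 1. Of 12 ranked positions there, 7 came from 1 library, and the promoter region was the 1 position found in at least 3. In the Sox14 window 8 of 12 ranked positions came from at least 3 libraries and 6 from all 4. This difference was not tested. The Sox14 window overlaps 5 other protein-coding genes, where that of SoxN overlaps none. Its positions at the PPP1R15 and Phm promoters were among the 6 from all 4 libraries. Over the whole genome 18250 of 63764 ranked positions came from at least 3 libraries.

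**Figure D2:**
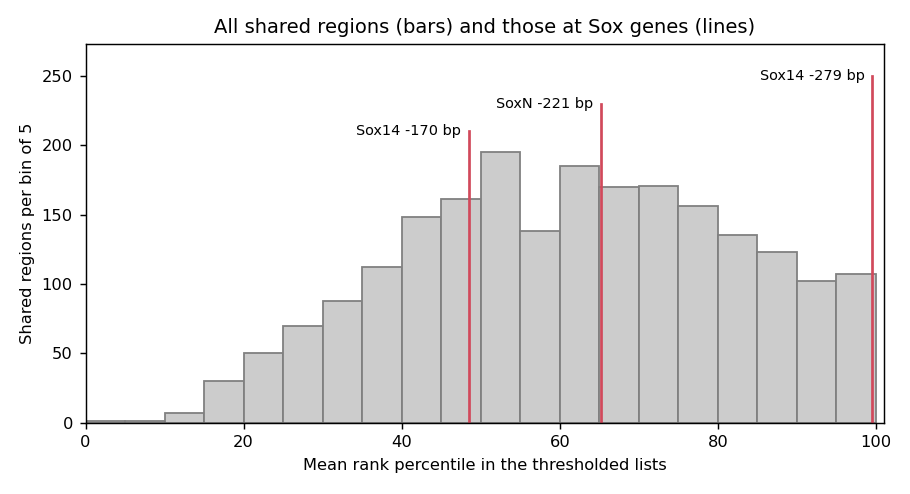
Number of shared regions of the genome (y axis, bars, in bins of 5) by mean rank percentile in the thresholded lists (x axis), with lines for the 3 regions at Sox genes, labelled by offset from the gene's nearest TSS. Sox14 has a region at the upper end (99.6) and another at 48.5, and SoxN lies at 65.2, near the median of 62.2.

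D, the other group B factor with a broad embryonic role, in segmentation and in the central nervous system, was thresholded in 2 of the 4 libraries. The gene (FBgn0000411; arm 3L, 14175610 to 14178620, minus strand) has TSS at 14177537 and 14178620. Its position, centred at 14177702, lay 165 bp upstream of the first of these and inside the annotated 5′ UTR of the longer transcripts, so its sequence is not printed. It ranked 2847 in replicate 2 and 2600 in replicate 4, in the lower part of both lists, at rank percentiles of 35.5 and 14.5. In the ranked lists all 4 libraries had it, at ranks 4724, 3087, 6909 and 3154, with rank percentiles of 88.1, 88.6, 77.1 and 90.8. The scores in replicates 1 and 3 were 725 and 518, below the 830 that the thresholded lists start from. A further ranked position 436 bp upstream of the same TSS was also in all 4 ranked lists, at a mean of 66.6 ± 20.8 in rank percentile (SD, n = 4).

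Sox21b and Sox21a are neighbours in the genome and share part of their windows. Sox21b (FBgn0042630; 3L, 14112405 to 14131324, minus strand) had a promoter position 549 bp upstream of a TSS that was thresholded in replicate 2, at rank 3220. In the ranked lists it stood at ranks 3541, 3544, 3502 and 4005 and rank percentiles of 91.1, 86.9, 88.4 and 88.3 (mean 88.7 ± 1.75, SD, n = 4). The scores in replicates 1, 3 and 4 were 281, 672 and 798. Sox21a (FBgn0036411; 3L, 14103481 to 14108118, minus strand), which acts in the differentiation of intestinal stem cells in the adult, had 0 thresholded peaks in all 4 libraries and was the 1 member of which this holds. Its ranked peaks numbered 0, 3, 3 and 5, none within 1000 bp of its TSS. The most repeated of them, 1901 bp upstream of Sox21a, lies between both genes and was listed in replicates 2, 3 and 4, at ranks 8032, 28129 and 8594. Of 188 ranked peaks counted over the 8 windows, 8 were counted for both genes.

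Sox15, Sox100B and Sox102F had thresholded peaks in 2, 1 and 1 libraries, and none of their positions was thresholded in more than 1. Sox15 (FBgn0005613; 2R, 14201390 to 14212413, minus strand), a group F factor known from the socket cells of sensory organs, had a promoter position 442 bp upstream of its TSS. Replicate 2 had it in the thresholded list, at rank 1757. In the ranked lists it stood at ranks 2037, 1890, 3493 and 9736. In replicate 1 its signal value exceeded that of 46.6% of the thresholded peaks, yet its score was 428 and it was not thresholded. Replicate 2 also had a weak thresholded peak in the Sox15 intron, at rank 4038. Replicate 4 had 1 at rank 2106 that lay 43 bp upstream of a TSS of RpS23, a gene for a protein of the small ribosomal subunit, and 4257 bp from the Sox15 TSS.

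Sox100B (FBgn0024288; 3R, 31065253 to 31083407, plus strand), the group E gene known from the testis and gut, had no thresholded peak at its own promoter. The peak in its window, in replicate 3 at rank 916, lay 28 bp upstream of a TSS of dco, which encodes a casein kinase, and 4452 bp from the Sox100B TSS. Ranked peaks there had rank percentiles of 81.0, 82.7, 96.7 and 90.8. Within 1000 bp of the Sox100B TSS, replicate 3 had a ranked peak at rank percentile 54.9 and the other libraries had none. Sox102F (FBgn0039938; chromosome 4, 800436 to 834393, minus strand), the group D gene and the longest of the family, had 1 thresholded peak, in replicate 2 at rank 2989, 136 bp upstream of the TSS at its 5′ end. The strongest ranked peak within 1000 bp of any of its 3 TSS had rank percentiles of 81.4, 88.0, 2.41 and 66.2, so that the libraries differed widely there.

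**Figure D3:**
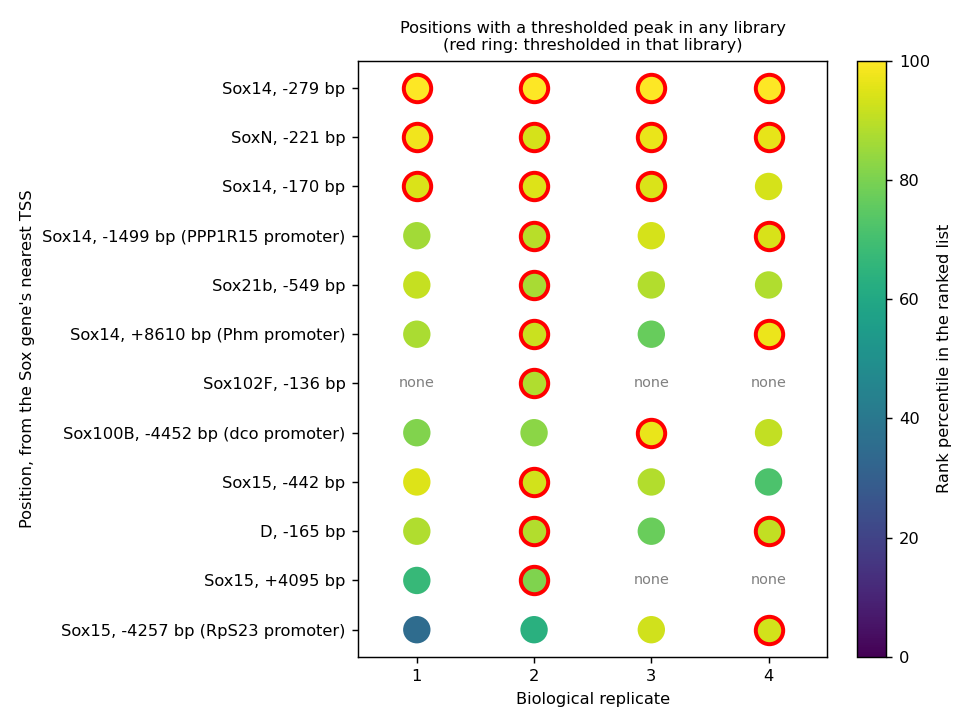
The 12 positions with a thresholded peak in any library (rows, by offset from the Sox gene's nearest TSS, with the promoter's gene in brackets where it is another) in the 4 replicates (columns). Colour is the rank percentile of the ranked-list peak within 100 bp, a red ring marks a thresholded peak, and "none" marks no ranked peak; 2 rows have 4 rings, 1 has 3, 3 have 2 and 6 have 1.

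The libraries differed in how many Sox genes their thresholded lists reached. Replicates 1 to 4 had a thresholded peak in the windows of 2, 6, 3 and 4 members, where the shares of all genes were 36.2%, 43.4%, 29.2% and 37.0%. The mean was 3.75 ± 1.71 members (SD, n = 4), with the most in replicate 2, which had the longest list, and the fewest in replicate 1, which had the second-longest. Over the libraries 7 of 8 members had a position with a thresholded peak, against 52.7% of all genes. Ranked peaks were in the windows of 7, 8, 8 and 8 members, where nearly all genes had one (90.6%, 85.5%, 92.9% and 92.4%), so the presence of a ranked peak in a window says little about a gene. No test was made of these counts.

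Most thresholded peaks in the Sox windows lay at promoters, some of them promoters of other genes. Of the 26 thresholded peaks in the windows (4, 10, 5 and 7 in replicates 1 to 4), 25 lay within 1000 bp of a TSS of a protein-coding gene and 1 in an intron, and for 20 the nearest TSS was that of the Sox gene. The 26 peaks formed 12 positions, 11 of them at promoters. Over the whole genome 64.6% of thresholded positions and 69.6% of shared regions were at promoters. These sets are unlike, since each Sox window was drawn around a gene with its TSS and the genome's shares cover positions anywhere on the arms. The share at Sox genes can therefore not be read as a trait of the family. Within 1000 bp of their own TSS, 6 of 8 members had a thresholded peak in some library, against 27.0% of all genes, and 2 had one in all 4, against 8.03%. Sox21a and Sox100B had none in any library. Sox15, Sox21b and Sox102F had theirs in replicate 2 alone, the library with the longest thresholded list. Ranked peaks lay within 1000 bp of the member's own TSS in all 4 libraries for 6 members, against 43.6% of all genes, and in some library for 7, against 81.2%.

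A position missing from a thresholded list was mostly still in the ranked list of that library. The 12 positions gave 48 pairs of position and library, of which 23 were thresholded. Of the other 25, 20 had a ranked peak within 100 bp of the position, with scores from 64 to 798, and 5 had none. The 5 were the Sox102F position in replicates 1, 3 and 4 and the intronic Sox15 position in replicates 3 and 4. Ranked summits joined by the rule used for thresholded ones did form a wider Sox102F position that was in all 4 ranked lists. Signal value and score ordered the peaks differently. At the position centred 170 bp upstream of the third Sox14 TSS, the ranked peak of replicate 4 missed the thresholded list. Its signal value was still higher than that of 36.1% of that library's thresholded peaks.

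By the strongest ranked peak anywhere in the window, the members fell in the order Sox14, SoxN, Sox15, Sox100B, Sox21b, D, Sox102F and Sox21a. The mean rank percentiles were 99.9 ± 0.0859 for Sox14, 96.1 ± 1.68 for SoxN, 93.5 ± 0.931 for Sox15, 89.7 ± 5.78 for Sox100B, 88.7 ± 1.75 for Sox21b, 86.1 ± 6.14 for D and 80.0 ± 7.93 for Sox102F (SD, n = 4 each), and 67.6 ± 8.95 for Sox21a (SD, n = 3, with no ranked peak in replicate 1). Sox14 was above SoxN, and SoxN above Sox15, in 4 of 4 libraries, by 3.84 ± 1.61 and 2.61 ± 1.33 percentile points (SD, n = 4). Below that, neighbours in the order crossed in at least 1 library, and their differences were smaller than the SD of the difference. No neighbouring pair passed the exact two-sided sign-flip permutation test (raw p from 0.13 to 0.75, adjusted p from 0.438 to 0.75 over 7 pairs), which with 4 libraries cannot go below 0.13 and for the last pair below 0.25. The places of Sox15 and Sox100B rested in part on peaks at the promoters of RpS23 and dco. The strongest Sox102F peaks of replicates 3 and 4 lay in an intron and an exon, away from its TSS. Taken at their own promoters alone, Sox15 had a mean of 87.0 ± 10.7 (SD, n = 4) and Sox100B had a single ranked peak. The order then changed, with Sox21b at 88.7 above Sox15, and Sox102F at 59.5 ± 39.1 (SD, n = 4).

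**Figure D4:**
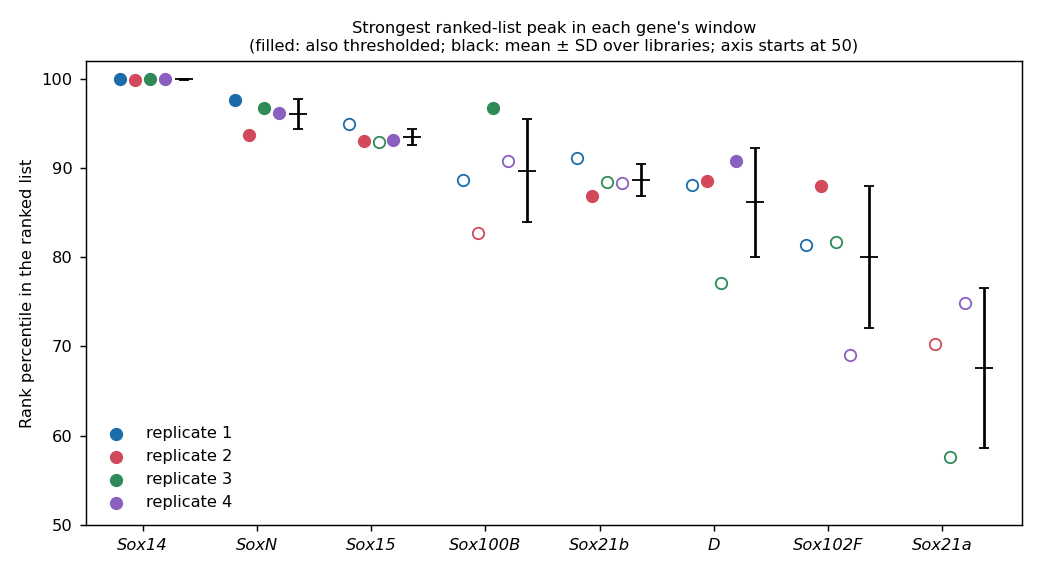
Rank percentile in the ranked list (y axis, starting at 50) of the strongest peak in each Sox gene's window (x axis), 1 point per replicate, filled where that peak is also in the thresholded list; black marks give the mean and SD over libraries. All points of Sox14 and SoxN are filled, Sox14 at 99.8 or above, and the spread grows toward Sox102F and Sox21a.

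The genes whose strongest shared region was most like that of Sox14 over the 4 libraries, by the mean absolute difference in rank percentile among 2330 other genes, were its neighbours PPP1R15 and mr, with a difference of 0 because their windows hold the same region, and NimC3, with a difference of 0.275. The NimC3 region, an intergenic site 1660 bp upstream of its TSS (2L, centre 14021868), ranked 39, 45, 10 and 11. Capr and Ppa, named after their values were seen, came next among separate regions, at differences of 0.295 and 0.344.

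Shared regions were also counted at other genes with an HMG box. Of 10 listed, 9 were matched in the annotation and 8 had a shared region in their window, against 28.5% of all genes. The list was chosen with earlier results of these data known, and genes that share a region are each counted. HmgD and HmgZ, neighbours that encode abundant chromosomal HMG proteins, share a region 175 bp upstream of a TSS of HmgZ, at a mean of 95.5 ± 3.45 in rank percentile (SD, n = 4). The gene bbx had a promoter region at 89.3 ± 4.71 (SD, n = 4). The strongest region in the window of Bap111, a Brahma complex subunit gene, was nearest to another gene, His3.3B, at 86.3 ± 6.27 (SD, n = 4). That of TFAM lay 2884 bp from the TFAM TSS and was nearest to EloB. Ssrp was the matched gene with none.

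Of 17 genes listed as partners or targets of Sox proteins, 7 had a shared region in their window, where 28.5% of all genes had one. This list was chosen with earlier results of these data known. For pros and usp the strongest region lay at the promoters of KP78a and Actn, 18304 and 4801 bp from their own TSS. EcR, the ecdysone receptor gene, had a mean rank percentile of 98.9 ± 0.555 (SD, n = 4), 187 bp upstream of a TSS, and held 7 shared regions in all. EcR was followed by nub, a POU factor gene, at 90.4 ± 5.57 (SD, n = 4), and wg, a Wnt ligand gene, at 76.6 ± 2.59 (SD, n = 4). Then came vvl, whose POU protein acts with Dichaete, at 64.7 ± 31.1 (SD, n = 3). The other 10, among them ac and ase, had none.

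The 2 lists of the whole series used here, 1 that its name calls conservative and the longest, reached more of the family. Both were derived from the pooled alignments of the same 4 libraries, so they are not separate evidence from the lists above. The conservative list of 5841 peaks had peaks in the windows of 6 members, against 46.9% of all genes, and the longest list of 13848 peaks in those of all 8, against 73.4%. The Sox14 promoter peak ranked 4 in both. The SoxN peak ranked 837 and 847, and the D peak 2293 and 2405. Sox15 and Sox21b had promoter peaks at ranks 2492 and 2483 in the conservative list, and Sox102F had 1 at rank 4351. Sox21a and Sox100B had none there. In the longest list the strongest peak of Sox100B was at the dco promoter (rank 2849), and that of Sox21a was the site between Sox21a and Sox21b (rank 7595). That of Sox15 was at the RpS23 promoter (rank 2620). Sox102F had 1 peak there, at rank 10000, which lay 538 bp upstream of another of its TSS than the peak in the conservative list.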

How the data were processed

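Peak lists of 4 ChIP-seq libraries of 1 group were used, and the members and gene lists were chosen with earlier results of these data known. Positions are on dm6, per the labels. The signal value of each peak is the authors' own, with no unit stated, and the deposited score belongs to an IDR analysis, per the file names. The sources used here do not name the aligner, the peak caller or what the IDR step compared. Signal values served only to rank peaks within 1 list. Of the series' lists, 2 of 7 thresholded ones were used as alternatives, and the 7 ranked ones were not used. No control library was analysed here.

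Summits (start plus offset, written 1-based) on the 6 chromosome arms were joined with windows of 100 bp to each side (Python 3.11.15, pandas 2.3.3), and the joining was tested on simulated data. Gene models came from Ensembl BDGP6.54 (release 115); peak ends fell within the arm lengths of the RefSeq Release 6 genome, the assembly that dm6 names. Named genes were all members, up to 4 genes with a region and 2 without from each list, the 3 most like Sox14, and the nearest genes of positions. Replicates are biological per the labels. Each p-value compares regions or members within the same libraries, and its smallest possible value is set by the number of libraries. Alternatives were the flank, the libraries required, the joining window, a stricter list, other rankings, the series' lists and leaving out each replicate.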

Additional observations from a re-analysis of the deposited data

Results flagged for a closer look

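Of 26 sets of 4 library values tested for a library far from the others, 3 were marked, and chance marks about 1 in 20. Sox21b had 1 thresholded peak in replicate 2 and 0 in the others. Sox102F had 1 thresholded peak in replicate 2 and 0 in the others. Sox100B had 1 thresholded peak in replicate 3, at the dco promoter, and 0 in the others. With counts of 0 and 1 any single peak is marked in this way.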

How the results depend on the processing

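The 2 members with a shared region, Sox14 and SoxN, were also found with a flank of 1000 bp, with all 4 libraries required, with narrower or wider joining windows and in the upper 50% of each list, where there were 2 to 3 regions. With a flank of 0 bp, 1 member (Sox14) and 1 region were left, because the promoter regions lie upstream of the gene body. A flank of 10000 bp gave 3 members, with Sox15, and 4 regions. When 2 of the 4 libraries were enough, 3 members, with D, and 6 regions were counted. The conservative list gave 6 members and 9 regions, and the longest list 8 members and 22 regions. In the latter count the site between Sox21a and Sox21b was counted for both genes. Leaving out each replicate, with 2 of 3 libraries required, gave 2 to 3 members and 3 to 6 regions; D joined without replicate 1 or 3. The mean rank percentile of the Sox14 region ran from 99.4 to 99.7 and that of SoxN from 61.7 to 67.0 when a replicate was left out. Ranked by score both were at 100, since scores are capped at 1000 and between 67.9% and 75.5% of the thresholded peaks had that score. In the ranked lists the SoxN region was at 96.1, as these lists hold many more weak peaks, and the Sox14 region at 99.9. No paired analysis was possible because the labels give 1 group, so that no groups share replicate numbers; the tests between members or regions compare values within each library. Unknown read depth limits every statement on a missing peak.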
